A study of Mus musculus with 24 samples.

Results

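Red cell precursors are made under the direction of a small set of transcription factors and under the influence of 2 surface receptors, and 10 of these genes are described here in mouse spleen. They are Gata1, Zfpm1, Tal1, Lmo2, Klf1, Nfe2, Gfi1b, Hemgn, Epor and Tfrc. The genes were taken by name from a list drawn up with earlier results of these data known, though by no threshold on their values, and all 10 were found among the 55414 genes of the count tables and passed the filter on low counts. The data are RNA-seq counts from spleens of BALB/c mice, 4 libraries titled CT-26 and 4 titled control. CT-26 cells come from a colon carcinoma of the same strain, and per the labels they were placed in the right side of the body of mice aged 8 weeks. The treatment field goes against the titles. It gives healthy control for those titled CT-26 and CT-26 injection for those titled control. The groups are therefore named by title, and no difference is read as tumour against healthy. The labels do not say whether the libraries of a set came from separate mice, so p-values measure the spread between these libraries only.

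Mouse spleen is a site of red cell production, in red pulp, and this activity can grow under stress. In red cell precursors GATA1 binds DNA together with a complex in which LMO2 links TAL1 to its partners, and these factors act with KLF1 on haemoglobin, membrane and haem synthesis genes. Erythropoietin, through its receptor, keeps early precursors alive, and the transferrin receptor brings in the iron for haem. Several of these genes are also used outside the red cell lineage: Gata1, Tal1, Nfe2, Gfi1b and Zfpm1 in megakaryocytes, Gata1 in eosinophils and mast cells, Lmo2 and Tal1 in endothelium and progenitors, and Tfrc in most dividing cells.

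The libraries held between 735298 and 1152550 counts in the titled CT-26 set and between 907109 and 1970950 in the titled control set. Mitochondrially encoded genes took 32.0% to 41.1% of counts in the titled CT-26 libraries and 46.2% to 66.1% in the titled control libraries. Haemoglobin genes took 7.07% to 10.1% of counts in the titled CT-26 libraries and 3.76% to 8.36% in the titled control libraries. Levels are given as CPM, the counts of a gene per 1000000 counts, with library totals scaled by TMM, a method that centres the fold changes of most genes. With totals alone, log2 fold changes were higher by 0.37 in the median gene.

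Of the 10 genes, 9 were higher in the titled CT-26 spleens and 0 were lower, by edgeR's quasi-likelihood test with Benjamini-Hochberg adjustment over all 6408 genes tested. At an unadjusted p under 0.05, and by DESeq2, the counts were also 9 and 0. Over all these genes, 21.2% were higher and 21.6% were lower at an adjusted p under 0.05, or 1359 and 1381 genes, against 1936 and 725 when scaled without TMM. The 9 genes had log2 fold changes (titled CT-26 minus titled control) between 1.42 and 2.42, with Hemgn, Epor and Tfrc at the top. Lmo2 did not pass, at 0.38. The median over the 10 genes was 1.69, against -0.02 over all genes tested. For 7 of the 10 genes every titled CT-26 library lay above every titled control library, which was so for 19.7% of all genes tested. In bulk tissue, more cells of a type and more RNA per cell cannot be told apart.

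**Figure D1:**
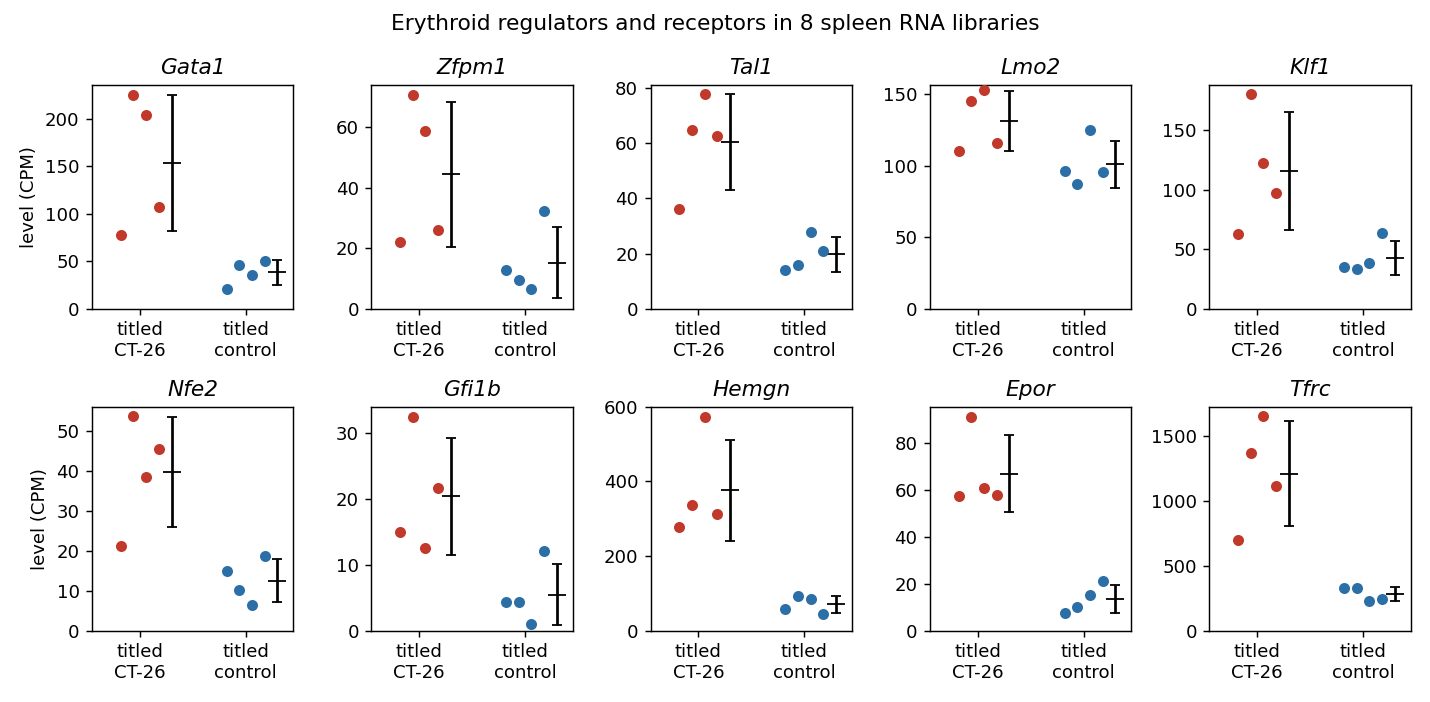
Level in CPM (y axis, from 0) of each of the 10 genes in the 4 titled CT-26 libraries (red, left) and the 4 titled control libraries (blue, right), with the mean and SD in black. Points of both sets are apart for 7 genes and overlap for Lmo2, Klf1 and Zfpm1.

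**Figure D2:**
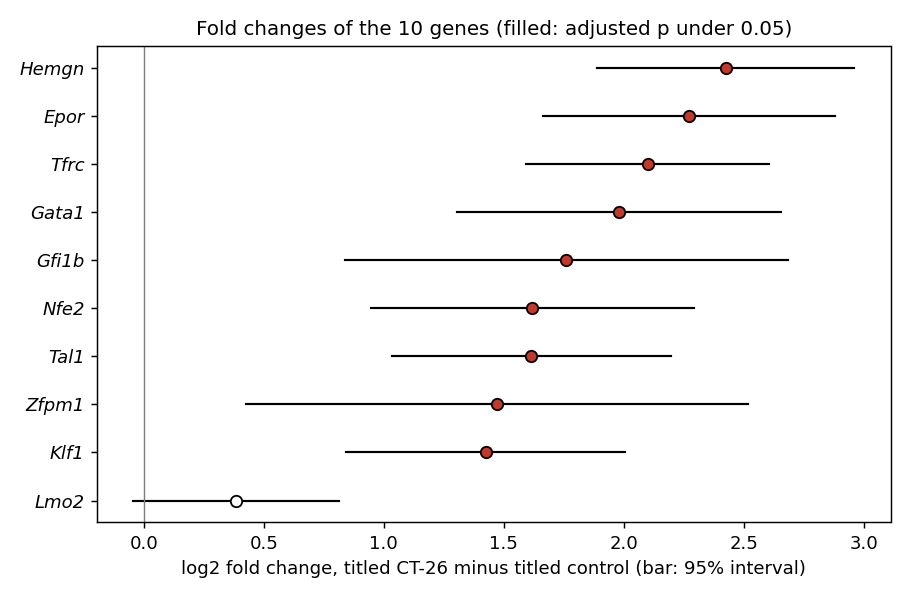
Log2 fold change of each gene, titled CT-26 minus titled control (x axis), with its 95% interval from the edgeR fit and filled points for an adjusted p under 0.05. Only the interval of Lmo2 includes 0, from -0.04 to 0.81.

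The promoters of several of the genes carry the letters that GATA factors bind, and the stretches are shown so that these letters can be read in their context. Whether GATA1 bound them was not tested. RefSeq promoter windows (GRCm38.p6, 250 bases before to 50 after a start) were found for 8 of the 10 genes, with a pair of windows each for Tal1 and Tfrc. The motifs AGATAA and TGATAA, on either strand, occurred in windows of 5 of these 8 genes, or in 5 of 10 windows. They occurred in 18.6% of all 32851 promoter windows of the same length. A longer pattern has the letters CTG of an E-box, the kind of element that TAL1 binds, then 8 or 9 bases of any kind and GATAA. It overlaps the GATA motif and occurred for Gfi1b, Hemgn and Klf1, against 1.46% of all windows. Each stretch below has 60 bases, written in the direction of its gene, with the matched motif in capitals.
Klf1, chr8:84901880-84901939, plus strand: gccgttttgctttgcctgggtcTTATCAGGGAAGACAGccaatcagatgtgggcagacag
Hemgn, chr4:46404184-46404243, minus strand: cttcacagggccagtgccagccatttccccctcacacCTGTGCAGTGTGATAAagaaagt
Gfi1b, chr2:28622075-28622134, minus strand: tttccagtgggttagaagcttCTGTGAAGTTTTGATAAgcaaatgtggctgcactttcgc
Epor, chr9:21963598-21963657, minus strand: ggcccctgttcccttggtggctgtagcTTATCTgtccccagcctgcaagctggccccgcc
Tal1, chr4:115056194-115056253, plus strand: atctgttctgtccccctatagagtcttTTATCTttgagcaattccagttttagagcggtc
In Klf1, Epor and Tal1 the motif reads on the opposite strand. Its first printed base lay 80 bases before the start in Klf1, 23 in Hemgn, 131 in Gfi1b, 54 in Epor and 205 in Tal1. The pattern CCNCNCCC is looser than the CACCC box that KLF1 binds and includes it. It was found in windows of 7 of the 8 genes, all but Klf1, and in 49.5% of all windows. The letters CACCC themselves, on either strand, were in matches of Epor, Gata1 and Tfrc only, and the matches in Hemgn were a run of G. The NF-E2 core TGAGTCA, also sought on both strands, was found in 0 of the 10 windows, against 5.20% of all windows, and the STAT5 pattern TTCNNNGAA in that of Gfi1b, where it overlaps the longer GATA pattern, against 8.30%. A match of letters is not a measured site, and these data do not measure binding.

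Gata1 encodes the zinc finger factor that is required for red cell precursors to mature (ENSMUSG00000031162, chromosome X, 7825499 to 7844310, GRCm39, the build of the GENCODE M29 models named in the file headers). It had 77.8, 225, 204 and 107 CPM in titled CT-26 libraries 1 to 4, against 21.4, 45.7, 35.4 and 50.5 CPM in titled control libraries 1 to 4. The sets did not overlap, and the spread was wide in the titled CT-26 set, where libraries 2 and 3 were highest. The log2 fold change was 1.98 ± 0.32 (SE), with an edgeR adjusted p of 5.75e-05. Zfpm1 encodes FOG1, the cofactor that GATA1 needs for much of its action (ENSMUSG00000049577, chromosome 8, 123008880 to 123063990). Its levels were 22.1, 70.7, 59.0 and 26.1 CPM in the titled CT-26 libraries, against 12.8, 9.42, 6.45 and 32.5 CPM in the titled control libraries. Titled control 4 lay above titled CT-26 1 and 4, so the sets overlapped. The log2 fold change of Zfpm1 was 1.47 ± 0.48 (SE), with an edgeR adjusted p of 0.0249. This call was lost without titled CT-26 2 or 3 or titled control 1 or 2, where the log2 fold change lay between 1.16 and 1.40 and the edgeR adjusted p between 0.0630 and 0.0882. It was also lost with the sequencing lane in the model, at an adjusted p of 0.309. Without titled control 4 the log2 fold change was 2.23.

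Tal1 encodes a basic helix-loop-helix factor, SCL, that starts the blood programme and acts again in red cell precursors (ENSMUSG00000028717, chromosome 4, 114913623 to 114928952). It had 36.3, 64.8, 77.8 and 62.5 CPM in the titled CT-26 libraries and 13.9, 15.9, 27.9 and 21.1 CPM in the titled control libraries. All titled CT-26 libraries were above the titled control libraries, with a log2 fold change of 1.62 ± 0.28 (SE) and an edgeR adjusted p of 3.48e-05. Lmo2 encodes the LIM domain protein that bridges TAL1 and the GATA factor (ENSMUSG00000032698, chromosome 2, 103788331 to 103812223). Its levels were 111, 145, 153 and 116 CPM in the titled CT-26 libraries, against 96.1, 87.0, 125 and 95.6 CPM in the titled control libraries. Titled control 3 lay above titled CT-26 1 and 4. The log2 fold change of Lmo2 was 0.38 ± 0.21 (SE, 95% interval -0.04 to 0.81), with an edgeR adjusted p of 0.141. It passed in 1 of 16 alternative settings, scaling by totals without TMM, at a log2 fold change of 0.73 and an edgeR adjusted p of 0.0220, where the median gene also moved up by 0.37. A gene on the other strand, 4931422A03Rik, overlaps Lmo2, and the counts were made without strand. It held 47 counts over the 8 libraries, against 1080 for Lmo2.

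Klf1 encodes the zinc finger factor that switches on adult beta globin and many other red cell genes (ENSMUSG00000054191, chromosome 8, 85628557 to 85631924). It had 62.8, 180.5, 122 and 97.7 CPM in the titled CT-26 libraries and 35.2, 33.3, 38.7 and 63.8 CPM in the titled control libraries. Only titled CT-26 1 lay within the titled control range, just under titled control 4. For Klf1 the log2 fold change was 1.42 ± 0.28 (SE), and the edgeR adjusted p was 0.000225. Nfe2 encodes the p45 subunit of NF-E2, which binds the globin control regions and is needed for platelet release (ENSMUSG00000058794, chromosome 15, 103156639 to 103166830). It had 21.2, 53.8, 38.4 and 45.4 CPM in the titled CT-26 libraries, against 15.0, 10.1, 6.45 and 18.6 CPM in the titled control libraries. The gap between the sets was narrow, from 18.6 CPM in titled control 4 to 21.2 CPM in titled CT-26 1. For Nfe2 the log2 fold change was 1.62 ± 0.33 (SE), and the edgeR adjusted p was 0.000208.

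Gfi1b encodes a zinc finger repressor of red cell and platelet precursors (ENSMUSG00000026815, chromosome 2, 28499462 to 28511994). By mean it had the lowest level per length of the 10 genes in both sets, and in each set its range overlapped that of the next gene. Its counts were 17, 44, 14 and 19 in the titled CT-26 libraries and 4, 6, 1 and 20 in the titled control libraries. In CPM these were 15.0, 32.4, 12.5 and 21.6 in the titled CT-26 libraries, against 4.27, 4.35, 1.07 and 12.0 in the titled control libraries, so titled control 4 lay just under the titled CT-26 range. The log2 fold change was 1.76 ± 0.45 (SE), with an edgeR adjusted p of 0.00223, and it was 2.58 without titled control 4. Hemgn encodes hemogen, a nuclear protein of blood precursors (ENSMUSG00000028332, chromosome 4, 46393989 to 46413506). It had 279, 337, 574 and 313 CPM in the titled CT-26 libraries, against 56.6, 93.5, 84.9 and 45.7 CPM in the titled control libraries. The lowest titled CT-26 library lay far above the highest titled control library. Hemgn had the largest fold change of the 10 genes, 2.42 ± 0.26 (SE) on the log2 scale, with an edgeR adjusted p of 2.67e-08.

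Both receptors rose as well. Epor encodes the erythropoietin receptor, which signals through the kinase JAK2 (ENSMUSG00000006235, chromosome 9, 21870193 to 21874802). It had 57.5, 91.4, 60.8 and 57.9 CPM in the titled CT-26 libraries, against 7.48, 10.1, 15.0 and 21.1 CPM in the titled control libraries. Of the titled CT-26 libraries, 3 lay close together and titled CT-26 2 stood above them. The log2 fold change of Epor was 2.27 ± 0.30 (SE), with an edgeR adjusted p of 4.05e-07. Tfrc encodes the transferrin receptor, CD71, by which cells take up iron (ENSMUSG00000022797, chromosome 16, 32427738 to 32451612). It had 699, 1363, 1651 and 1111 CPM in the titled CT-26 libraries, against 331, 324, 226 and 245 CPM in the titled control libraries. Its log2 fold change was 2.10 ± 0.25 (SE), with an edgeR adjusted p of 7.09e-08. Tfrc alone made up 50.6% to 56.7% of all counts of the 10 genes in the titled CT-26 libraries and 39.8% to 55.8% in the titled control libraries.

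Levels of different genes were compared per length, as CPM per kilobase of gene model (RPKM). In the titled CT-26 set Tfrc was highest at 195 ± 65.3 RPKM (SD, n = 4), followed by Hemgn at 149.7 ± 53.5, Klf1 at 75.5 ± 32.3, Gata1 at 62.9 ± 29.5 and Lmo2 at 60.5 ± 9.71. Of these 5, each gene's range overlapped that of the next. Epor came next at 33.6 ± 8.23 RPKM, apart from both of its neighbours. Tal1, Nfe2, Zfpm1 and Gfi1b lay between 11.1 and 13.8 RPKM on average, and their ranges overlapped. In the titled control set Lmo2 came first at 46.6 ± 7.57 RPKM (SD, n = 4) and Tfrc second at 45.5 ± 8.73, with overlapping ranges. Hemgn at 27.9 ± 9.03 RPKM and Klf1 at 27.9 ± 9.24 did not differ beyond their spread. Gata1 followed at 15.7 ± 5.29 RPKM and lay below Klf1 in all 4 libraries. By mean, Lmo2 thus stood below Tfrc, Hemgn, Klf1 and Gata1 in the titled CT-26 order and above them in the titled control order. In single libraries, Gata1 was above Lmo2 in 2 of 4 titled CT-26 libraries, and Lmo2 was above Tfrc in 2 of 4 titled control libraries.

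A ratio of counts within a library does not depend on scaling, and each gene was set against Gata1 in this way. Lmo2 had 1.42, 0.646, 0.750 and 1.09 counts per Gata1 count in titled CT-26 libraries 1 to 4, against 4.50, 1.90, 3.52 and 1.89 in titled control libraries 1 to 4. The sets did not overlap, and the mean log2 ratio was lower by 1.55 in the titled CT-26 set (difference -1.55; exact two-sided permutation p = 0.0286, adjusted p = 0.257 over 9 ratios). The other 8 ratios overlapped between the sets. Their mean log2 differences ran from -0.55 for Klf1 to 0.49 for Hemgn, with exact permutation p between 0.114 and 0.83. Of the 9 ratios, 0 passed after adjustment (1 at an unadjusted p under 0.05), and 0.0286 is the smallest p that 70 assignments of 4 against 4 libraries can give. Over 9 ratios, a single ratio at this smallest permutation p has an adjusted p of 0.257 and cannot pass. That Lmo2 did not pass was therefore set by the number of libraries. With so few libraries and spreads this wide, differences between the other 8 genes and Gata1 were not detectable, which does not show that they moved by the same amount.

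**Figure D3:**
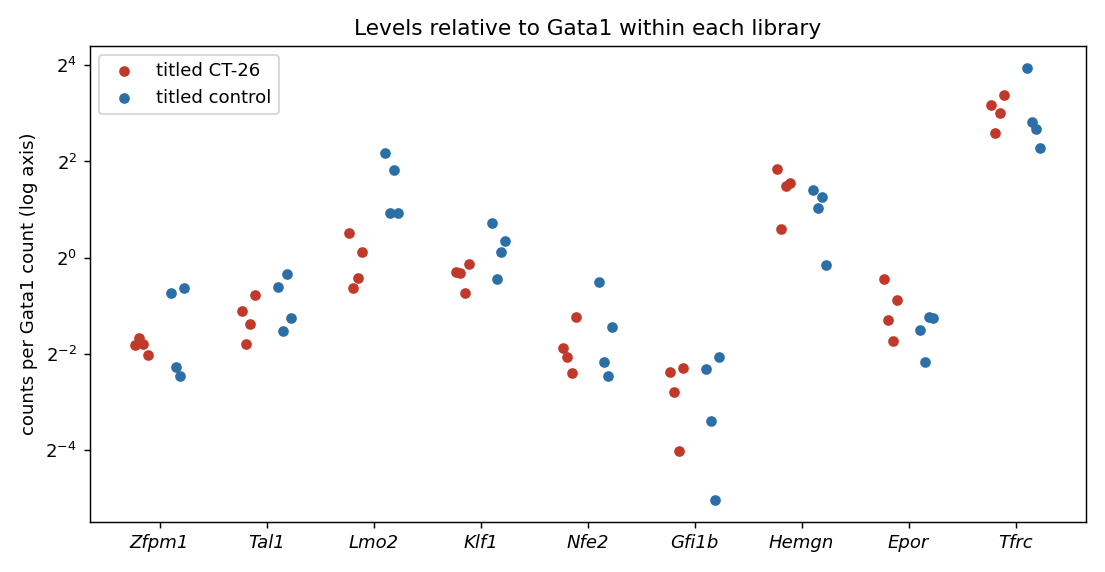
Counts of each of the other 9 genes per count of Gata1 in the same library (y axis, log scale), for the titled CT-26 libraries (red, left) and the titled control libraries (blue, right). The sets are apart for Lmo2, at 0.646 to 1.42 in titled CT-26 and 1.89 to 4.50 in titled control, and overlap for the other 8 genes.

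Haemoglobin counts were used as a further denominator, picked after their values were seen, so these ratios are a description. Hemgn had 4.35, 4.06, 5.65 and 5.03 counts per 1000 haemoglobin counts in the titled CT-26 libraries, against 0.957, 1.15, 1.04 and 1.03 in the titled control libraries. Its spread in the titled control set was small compared with the gap between the sets. Tfrc had 10.9 to 17.8 counts per 1000 haemoglobin counts in the titled CT-26 set and 2.77 to 5.60 in the titled control set. Gata1, Tal1 and Epor also did not overlap on this measure, whereas Klf1, Nfe2, Zfpm1, Gfi1b and Lmo2 did. The share of all genes without overlap on this measure is not given here. Lmo2 had 1.51 to 1.86 in the titled CT-26 libraries and 1.07 to 2.15 in the titled control libraries. Against Slc4a1, the red cell anion exchanger and likewise picked after its values were seen, all 10 genes had a lower mean log2 ratio in the titled CT-26 set. These differences ran from -0.99 for Hemgn to -3.03 for Lmo2. The anion exchanger itself had a log2 fold change of 3.44, above the largest of the 10 genes, 2.42 for Hemgn. A lower ratio is thus set by the choice of denominator and is not particular to these genes. The median log2 fold change over all genes tested was -0.02, also far below that of Slc4a1. The share of all genes with a lower ratio to Slc4a1 is not given here.

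In each set 1 library was the highest for 6 of the 10 genes. Titled CT-26 1 was the lowest of its set for 9 genes, all but Gfi1b, while it was the lowest for 30.8% of all genes tested. Titled CT-26 2 was the highest of its set for Gata1, Klf1, Nfe2, Epor, Zfpm1 and Gfi1b, and titled control 4 was the highest of its own set for the same 6 genes. Titled CT-26 2 was the highest of its set for 24.4% of all genes tested and titled control 4 for 28.2%. Tal1, Lmo2, Tfrc and Hemgn were highest in titled CT-26 3, whereas in titled control 4 Hemgn was at its lowest. Summed over the 10 genes, the levels were 1381, 2564, 2953 and 1958 CPM in titled CT-26 libraries 1 to 4, against 594, 634, 566 and 606 CPM in the titled control libraries.

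**Figure D4:**
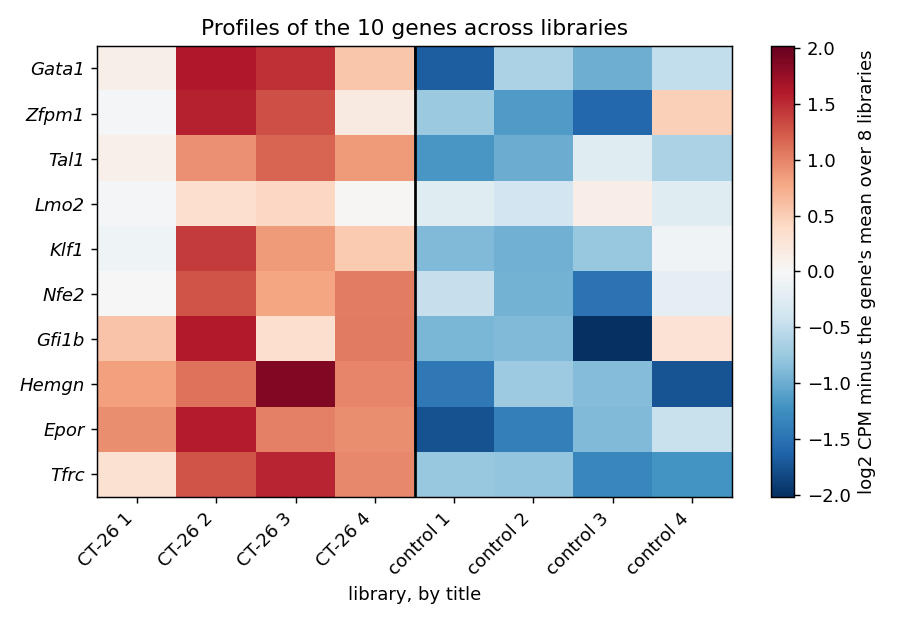
Log2 CPM of each gene minus its own mean over the 8 libraries (colour), with genes in rows and libraries in columns, titled CT-26 at left. Titled CT-26 1 is the palest column of its set, and Lmo2 is the palest row.

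The profile of each gene was compared with the mean profile of the other 9 by the root mean square difference of centred log2 CPM over the 8 libraries. Klf1 was closest to the others at 0.26, and Lmo2 was farthest at 0.79, followed by Hemgn at 0.68 and Gfi1b at 0.61. Outside the list, the 5 genes of most similar profile to the mean of the 10 were Bsg, Nudt19, Tnfaip2, Abtb1 and Wdhd1. Their root mean square differences lay between 0.146 and 0.174 on the log2 scale, against a median of 0.972 over 6393 genes and 0.891 for a gene that is flat. Bsg, which encodes the membrane glycoprotein basigin, had 423 to 687 CPM in the titled CT-26 libraries and 144 to 182 CPM in the titled control libraries. With the median profile in place of the mean, 1 of these 5, Nudt19, stayed among the 5 closest, so the choice of names is not stable.

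The sequencing lane, as the file headers name it, differed between libraries, and only lanes 1 and 2 held both sets. Lane 1 held 2 titled CT-26 libraries and 1 titled control library, and lane 2 held 1 titled CT-26 library and 2 titled control libraries. Within lane 1, the differences of mean log2(CPM + 1), titled CT-26 minus titled control, ran from 0.06 for Lmo2 to 3.73 for Gfi1b, which had 1 count in the titled control library of that lane. Within lane 2 they ran from 0.10 for Zfpm1 to 2.43 for Hemgn. Gata1 differed by 2.10 in lane 1 and 1.22 in lane 2, Epor by 2.20 and 2.10, Tfrc by 2.44 and 1.29, and Hemgn by 1.93 and 2.43. Tal1 differed by 1.16 and 1.04, whereas Klf1 differed by 1.75 and 0.40 and Nfe2 by 2.76 and 0.33. On this scale the mean of the titled CT-26 libraries was above that of the titled control libraries for all 10 genes in both lanes. Single libraries overlapped for Lmo2 in lane 1 and for Klf1 and Zfpm1 in lane 2. The share of all genes with this direction in both lanes, or without overlap in a lane, is not given here. For Zfpm1 in lane 2 the mean CPM went the other way, at 22.1 in the titled CT-26 library and 22.6 over the titled control libraries. With lane as a factor in the edgeR model, 8 of the 10 genes were called higher, and over all genes 999 were higher and 1007 were lower.

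Other genes of the red cell pathway were read from the same fit over all genes. Of 32 partners and other regulators of erythroid transcription, 28 were tested, 7 were higher, 6 were lower and 15 did not pass, with a median log2 fold change of 0.15. Scaling without TMM gave 11 higher and 3 lower. The cell cycle factor E2f2, which acts in late red cell maturation in mice, changed by 3.66 ± 0.27 (SE), and Sox6, a factor of definitive red cells, by 2.40. E2f4, needed for expansion of red cell precursors in mice, changed by 1.54, and Bach2, a repressor of B cells and other lymphocytes, by -1.93. The bridging factor Ldb1, the direct partner of LMO2, did not pass at -0.13, and the early factor Gata2 had 1 to 4 counts in a library and was not tested. Both were named after their values were seen.

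Of 19 genes of erythropoietin signalling, 12 were tested, 5 were higher, 2 were lower and 5 did not pass, with a median log2 fold change of 0.41. The kinase gene Pim1 changed by 2.63, the survival gene Bcl2l1 by 2.05 and the feedback inhibitor Socs3 by 1.91. Ptpn6, the phosphatase that shuts off the receptor and is abundant in lymphocytes, changed by -2.09. Of 20 genes of the transferrin cycle and iron supply, 18 were tested, 7 were higher, 4 were lower and 7 did not pass, with a median of 0.38. Slc25a37, the mitochondrial iron importer mitoferrin, changed by 1.97, and its partner Abcb10 by 2.18. The iron exporter Slc40a1, typical of red pulp macrophages, changed by -2.67 and the iron sensor Hfe by -2.22.

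Of 35 red cell product genes, 34 were matched by symbol and 32 were tested. Of these, 28 were higher, 0 were lower and 4 did not pass in the edgeR fit, with a median log2 fold change of 1.60. At an unadjusted p under 0.05, and by DESeq2, 29 were higher and 0 were lower. The genes that did not pass included the haemoglobin genes Hbb-bs at 0.07, Hbb-bt at 0.00 and Hba-a2 at 0.45, named after their values were seen. The haemoglobin gene Hba-a1 did pass, at 0.90 with an edgeR adjusted p of 0.00129. Reads of these near-identical copies could be split between them by the counting, so their single values are uncertain. Ank1, which anchors the membrane skeleton, changed by 3.63 and the water channel Aqp1 by 3.25. The list was drawn up with results of these data known, so its direction is no independent support.

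**Figure D5:**
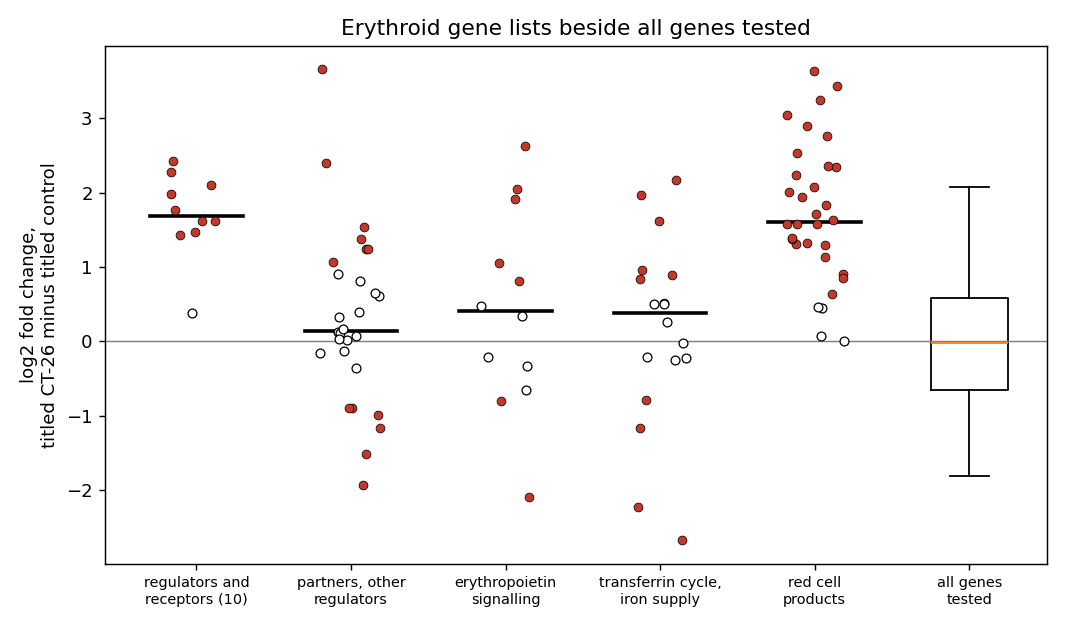
Log2 fold change, titled CT-26 minus titled control (y axis), of the tested genes of 5 lists, with a black bar at each median and filled points for an adjusted p under 0.05, beside a box of the quartiles of all 6408 genes tested with whiskers at the 5th and 95th percentiles. The medians are 1.69 for the 10 genes, 0.15, 0.41 and 0.38 for the next lists and 1.60 for red cell products.

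Markers of other cells that use these genes, and of the main other spleen cells, were read from the same fit. Of 16 megakaryocyte and platelet markers, 3 were tested and 0 passed in the edgeR fit, with 2 higher at an unadjusted p under 0.05 and 1 higher by DESeq2. Their summed level was 34.5, 281, 230 and 276 CPM in titled CT-26 libraries 1 to 4, against 61.9, 37.0, 45.1 and 116 CPM in titled control libraries 1 to 4. Titled CT-26 1 was thus low, and titled CT-26 2 and titled control 4 were the highest of their sets, as they were for Gata1, Klf1, Nfe2, Epor, Zfpm1 and Gfi1b. Below the highest library, only Nfe2 kept the order of the sums in the titled CT-26 set, and none of these genes did in the titled control set. Gata1 had 204 CPM in titled CT-26 3 and 107 CPM in titled CT-26 4, and Gfi1b was lowest in titled CT-26 3. Tal1, Lmo2, Tfrc and Hemgn were highest in other libraries. Orders of so few libraries are given as a description only. The part of megakaryocytes and platelets in the levels of these genes was not tested. The 3 tested markers Pf4, Itgb3 and Ppbp had log2 fold changes of 1.11, 1.53 and 1.13. Of those not tested, Gp5 had 3 to 62 counts in the titled CT-26 libraries and 1 to 11 in the titled control libraries. Treml1 had 5 to 37 and 4 to 7, and Itga2b 4 to 8 and 0 to 2. By mean CPM, Vwf and Nbeal2 were slightly lower in the titled CT-26 set, at 0.69 against 0.72 and 2.23 against 2.28. Tubb1 had 0 counts in all libraries.

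Of 16 basophil, mast cell and eosinophil markers, 4 were tested, 2 were higher, 1 was lower and 1 did not pass. Their summed level was 361, 556, 984 and 575 CPM in the titled CT-26 libraries, against 233, 228, 203 and 95.6 CPM in the titled control libraries. In the titled CT-26 libraries most of it was Prg2, a granule protein of eosinophils, at 301 to 909 CPM in the titled CT-26 libraries and 32.5 to 90.8 CPM in the titled control libraries. Prss34, a mast cell and basophil protease, changed by 4.37 on the log2 scale and the eosinophil receptor Ccr3 by -3.75. The defining eosinophil genes Siglecf and Epx had at most 2 and 7 counts in a titled CT-26 library and at most 1 count each in a titled control library. Of 12 endothelial markers, 4 were tested, 1 was higher, 1 was lower and 2 did not pass. Tie1 changed by 1.89 on the log2 scale and Pecam1 by -0.91. Tie1 had 10 to 21 counts in the titled CT-26 libraries and 1 to 8 in the titled control libraries. Their summed level was 82.2 to 152 CPM in the titled CT-26 libraries and 107 to 191 CPM in the titled control libraries, and Cdh5, Tek and Emcn had at most 5 counts in any library.

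Of 16 cell cycle genes tested, out of 17, 16 were higher, with a summed level of 4285 to 6445 CPM in the titled CT-26 libraries and 1028 to 1305 CPM in the titled control libraries. Of 11 neutrophil markers tested, out of 12, 9 were higher, with sums of 3923 to 9450 CPM in the titled CT-26 set and 536 to 1735 CPM in the titled control set. Lymphocyte markers went down. Of 12 B cell markers 11 were lower, with sums of 410 to 815 CPM in the titled CT-26 libraries and 2216 to 3338 CPM in the titled control libraries. All 12 T cell markers were lower, with sums of 342 to 821 CPM in the titled CT-26 libraries and 1576 to 2332 CPM in the titled control libraries. Of 10 red pulp macrophage markers 6 were lower, with sums of 1251 to 1629 CPM in the titled CT-26 set and 2387 to 2766 CPM in the titled control set. The part of these other cells, and of the mitochondrial share, in the levels of the 10 genes was not tested.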

How the data were processed

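RNA was measured in 8 spleen libraries, 4 in each titled set. The deposited values are raw fragment counts per gene, made without strand by featureCounts 2.0.1 on GENCODE M29 models, per the file headers. STAR 2.7.10a and Trimmomatic 0.39 are named in the submitters' processing notes, which list both GRCm39 and GRCm38. The other 16 deposited tables hold receptor sequences and were not used. Gene symbols were matched by Ensembl ID for 52081 of 55414 genes.

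Counts were tested with edgeR 4.0.16 (TMM, filterByExpr, robust quasi-likelihood test, Benjamini-Hochberg threshold 0.05), titled CT-26 minus titled control, in R 4.3.3. The step was tested on simulated data. It called 52% of 100 genes changed 2-fold and 98% of 100 genes changed 4-fold, with 5 false calls among 155. The alternatives were DESeq2 1.42.0, totals without TMM, no filter, a fit that was not robust, the lane or the replicate number in the model, removal of mitochondrial and haemoglobin genes, and each library left out. Ratios within a library used a pseudocount of 0.5. The genes of most similar profile had a mean log2 CPM of at least 3. From the other lists the text names up to 4 genes of smallest p. Itga2b, Gp5, Treml1, Vwf, Nbeal2, Siglecf, Epx, Cdh5, Tek and Emcn were named after their values were seen. Promoters came from RefSeq. The 10 genes and all lists were chosen with earlier results of these data known.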

Additional observations from a re-analysis of the deposited data

Results flagged for a closer look

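The level of Epor in titled CT-26 2, at 91.4 CPM, stood apart from the other libraries of its set, which had 57.5, 60.8 and 57.9 CPM. On the scale of log2 CPM, its gap to the nearest of them was 0.879 of the range of the set, above the 95% critical value of Dixon's test. It was 1 of 20 sets of 4 libraries tested, and chance alone flags about 1 in 20.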

How the results depend on the processing

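Of the 10 genes, 8 passed in all 16 alternative edgeR and DESeq2 settings, the exceptions being Zfpm1, which passed in 11, and Lmo2, which passed in 1. The edgeR or DESeq2 adjusted p of Lmo2 ran from 0.0220 to 0.737, and its log2 fold change was positive in all 16. Zfpm1 ran from 1.12 with the lane as a factor to 2.42. Library totals without TMM gave 1936 genes higher and 725 lower, against 1359 and 1381 with it, and the median fold change of all genes moved by 0.37. With each library left out in turn, 1236 to 1486 genes were higher and 1251 to 1462 lower. Of the 10 genes, 8 to 9 were higher and 0 lower each time. Each time 0 ratios to Gata1 passed. With only 35 assignments of 3 against 4 libraries, a single ratio could not pass after adjustment. Of the 5 genes of most similar profile, 1 was kept with the median profile; the cause was not tested. With titled control 1 and 4 left out together, a setting chosen after seeing the data, 9 of the 10 genes were higher, against 1267 higher and 1336 lower over all genes.

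The replicate numbers are shared between the sets, and whether they pair the libraries was not settled. Deviations of same-numbered libraries correlated between -0.0914 and 0.0764. Only titled CT-26 1 had its best match in the titled control library of the same number. A fit with the replicate number as a block called 1340 genes higher and 1328 lower, with 9 of the 10 genes higher. Depth limits Gfi1b most, with 1 to 44 counts in a library.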
